A study of Mus musculus with 32 samples.

Results

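C1H was compared with C1 at day 0, in pluripotent culture, which asked how the transcriptome of mouse embryonic stem cells (ESCs) without β-catenin differed once a high dose of a β-catenin fusion was present. The comparison took 8 of the 32 libraries of the series, chosen by their sample labels, with 4 cultures labelled as biological replicates in each group. All cells were of 1 line, C1, in which both endogenous copies of the β-catenin gene are knocked out and 2 lentiviral transgenes were added: rtTA under the EF1a promoter, and DD-mCherry-β-catenin S33Y under the TRE3G promoter. Doxycycline (dox) starts transcription of the fusion through rtTA, trimethoprim (TMP) keeps its destabilising domain (DD) from sending it to degradation, and the S33Y change removes a phosphorylation site through which β-catenin is marked for destruction. C1 cells received 10 µM TMP alone for 48 h, while C1H cells received 10 µM TMP with 100 ng/mL dox for 48 h and were then sorted for the highest mCherry fluorescence. The middle fraction of the same induced cultures is C1M, which is used below only beside C1H. Dox and the mCherry gate therefore came with the fusion in C1H and were not applied to C1, so their effects cannot be told apart from that of the fusion. The study's methods state pre-culture for 3 passages in 2i/L (LIF with inhibitors of GSK3 and MEK), whereas the growth protocol given with the samples describes serum with LIF. Strain, sex and clonality of the line are not given in the sources used here.

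β-catenin has a pair of roles in these cells. At the membrane it ties cadherins to α-catenin and the actin cytoskeleton in adherens junctions, and in the nucleus it carries the canonical Wnt signal by binding TCF/LEF factors on target genes. In mouse ESCs its best known nuclear action is to relieve repression by TCF7L1, a TCF factor that holds down pluripotency genes. Many germline genes are silent in ESCs through CpG methylation and through the repressor complex PRC1.6, in which MGA and MAX bind the E-box CACGTG and E2F6 binds a site with the core TCCCGC. A small share of ESCs in culture passes through a two-cell-like state, in which transcripts of the cleaving embryo such as those of the Zscan4 family are made.

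Germline genes rose together in C1H (values below), and promoters of some of them are shown first. No binding was measured here. The sequences are the 100 bases before the annotated start, from RefSeq on GRCm38.p6, of the 5 risen list members with an E-box there and the smallest p. Each runs 5′ to 3′ along the gene's strand with the E-box in capitals.
Sycp1, chr3:102936101-102936200, minus strand: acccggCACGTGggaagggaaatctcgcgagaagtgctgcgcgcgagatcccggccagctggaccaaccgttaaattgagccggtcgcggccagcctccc
Taf7l, chrX:134476491-134476590, minus strand: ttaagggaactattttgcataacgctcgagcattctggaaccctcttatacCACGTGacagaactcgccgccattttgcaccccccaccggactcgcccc
Slc25a31, chr3:40708771-40708870, plus strand: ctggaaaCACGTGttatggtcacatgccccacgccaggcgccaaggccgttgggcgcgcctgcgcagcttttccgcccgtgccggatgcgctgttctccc
Brdt, chr5:107331094-107331193, plus strand: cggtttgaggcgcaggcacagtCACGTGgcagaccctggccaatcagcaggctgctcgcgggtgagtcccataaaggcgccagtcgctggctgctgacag
Sycp3, chr10:88459487-88459586, plus strand: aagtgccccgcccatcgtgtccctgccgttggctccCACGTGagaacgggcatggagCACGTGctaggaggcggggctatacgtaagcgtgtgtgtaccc
The E-box began 94 bases before the start in Sycp1, 49 in Taf7l, 93 in Slc25a31 and 78 in Brdt, and Sycp3 carried it at both 64 and 43 bases. Over the window from 250 bases before to 50 after the start, CACGTG, which reads the same on both strands, stood in 11 of the 24 germline list genes that had a window (45.8%). The same letters stood in 8.09% of all 27025 genes with such a window and in 3 of 21 glycolysis genes (14.3%). TCCCGC or its complement GCGGGA stood in 11 of 24 germline genes (45.8%), in 22.0% of all genes and in 13 of 21 glycolysis genes (61.9%). These are counts of letters in a window and not measured binding.

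QuantSeq libraries were made, in which reads come from near the 3′ ends of polyadenylated transcripts. Reads on genes numbered 1797132 to 2493356 in C1 and 2331847 to 2840414 in C1H, and levels are given as counts per 1000000 reads (CPM) with TMM scaling, where a floor of 3 counts came to a mean of 1.49 CPM in C1 and 1.11 CPM in C1H. A gene was called where the adjusted p of edgeR's quasi-likelihood test was under 0.05 over the 15280 genes tested. Pluripotency markers were present in all libraries of both groups, with Sox2 at 860.0 ± 29.9 CPM in C1 and 761 ± 24.7 CPM in C1H (SD, n = 4), Nanog at 581 ± 44.3 and 570.2 ± 17.7 CPM, Zfp42 at 447 ± 30.1 and 377 ± 12.3 CPM, and none of these 3 was called. Pou5f1 and Esrrb, of the same marker set, were present too but both fell in C1H, as did other pluripotency genes (values below). Markers of fibroblasts, from a list of 11 of which 6 were tested, summed to 13.0 to 22.1 CPM in C1 and 16.8 to 26.02 CPM in C1H, and Col3a1, Postn, Lum, Acta2 and S100a4 were too low to be tested. In bulk RNA, fewer cells of a type and less RNA per cell cannot be told apart. The share of reads that fell on no gene was 19.5 to 20.9% in C1 and 22.1 to 23.1% in C1H, a difference of 2.35 percentage points (exact two-sided permutation test, p = 0.0286, the smallest that 4 against 4 allows). With all libraries thinned to 1797132 reads, 14542 to 14694 genes had a read in C1 and 15533 to 15585 in C1H (exact permutation p = 0.0286). Both properties moved with the groups and their part in the results below was not tested.

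Ctnnb1, the gene that was removed and put back (ENSMUSG00000006932, GRCm38 chr9:120929216-120960507, plus strand), was read first as a check of the labels. Its level was 8.81, 6.23, 5.19 and 11.0 CPM in the 4 C1 libraries and 40.5, 40.4, 48.7 and 34.9 CPM in the 4 C1H libraries, so every C1H library stood above every C1 library. The log2 fold change was 2.37 ± 0.21 (SE; adjusted p = 6.5e-20), and it remained between 2.21 and 2.57 when any 1 library was left out. Gene counts do not show whether a read came from the transgene or from what is left of the locus, and with reads at the 3′ end it is not known here whether the counted stretch lies in the deleted part.

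Across all genes, 25.9% of those tested differed between C1H and C1. The 2113 that rose were 13.8% and the 1852 that fell were 12.1% of the tested genes. With library sizes alone in place of TMM scaling the split became 2732 higher and 1376 lower, and with libraries thinned to equal depth it was 1733 higher and 1802 lower. It also turned to more falls with at least 1 CPM in all libraries (1549 and 1613) and when any 1 library other than C1 replicate 4 was left out (for example 1629 and 1692 without C1 replicate 1), so no balance of directions is read from these counts. The sizes were less even than the counts: 480 genes rose by more than 2 on the log2 scale (3.14% of those tested) and 48 fell by more (0.314%), and of these 480 risen genes 376 had at most 3 counts in every C1 library. The direction also followed the level of the gene. Among genes between 1 and 4 CPM, averaged over both groups, 386 of 2576 rose and 49 fell, among those between 16 and 64 CPM 586 of 4271 rose and 629 fell, and above 256 CPM 95 of 662 rose and 271 fell. Of 502 lincRNA genes tested 85 rose and 13 fell. The plot of change against level shows this tilt with the leading genes marked.

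**Figure D1:**
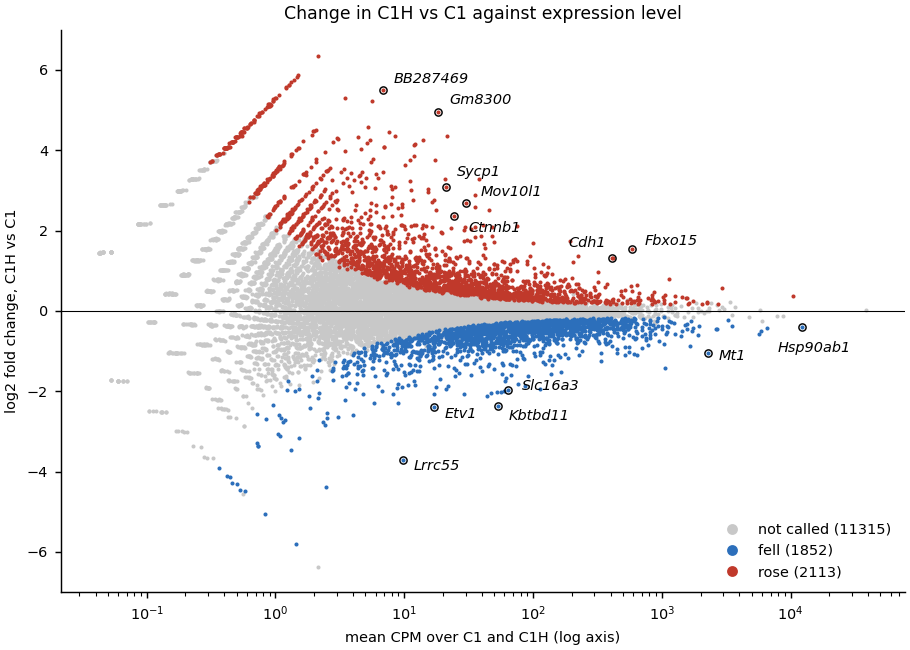
Log2 fold change of C1H vs C1 (vertical axis) against the mean CPM over both groups (horizontal axis, log scale) for 15280 tested genes, coloured by call, with 13 genes circled. Risen genes (2113) spread to large positive values at low level, while fallen genes (1852) crowd at high level with smaller changes.

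Of 21 direct Wnt targets listed, 16 could be tested, and 4 rose and 2 fell (1 without C1 replicate 1, 2 or 3 or C1H replicate 1 or 2), beside 13.8% and 12.1% of all genes. Their median log2 fold change was 0.49, or 0.17 with levels under the floor set to the floor, where that of all tested genes was 0.04. Axin2, a negative regulator of the pathway that is widely used as its readout, had 0, 0, 2.595 and 1.44 CPM in C1 and 2.39, 2.44, 1.47 and 0.841 CPM in C1H. The groups overlapped, with a log2 fold change of 0.86 ± 0.65 (adjusted p = 0.35). On at most 5 counts in a C1 library and 7 in a C1H library, this value went from 0.37 without C1 replicate 1 to 1.80 without C1 replicate 3, and at this depth a change of Axin2 could not be told from none. Lef1, a nuclear partner of β-catenin, overlapped too, at 2.51 ± 0.775 CPM in C1 and 2.08 ± 0.384 CPM in C1H (adjusted p = 0.78). The 3 clearest rises were in Tnfrsf19, a receptor of the TNF family, from 1.68, 3.40, 2.595 and 3.36 CPM to 11.2, 9.76, 15.0 and 10.1 CPM (log2 fold change 2.07 ± 0.32, adjusted p = 3.3e-08), and in Nkd2 and Nkd1, which restrain Wnt signalling at Dishevelled. Nkd2 went from 1.46 ± 0.512 to 6.34 ± 1.99 CPM (adjusted p = 8.6e-05) and Nkd1 from 2.10 ± 2.01 to 6.28 ± 0.693 CPM (log2 fold change 1.63, adjusted p = 0.0026), with one C1 library at 5.10 CPM, and its log2 fold change was 2.45 without that library, C1 replicate 2. Sp8, a zinc finger factor, had no read in any C1 library and 0.341 to 1.10 CPM in C1H, which is at or under the floor. Its adjusted p of 0.037 went as high as 0.087 when single libraries were left out, and the call was lost without any library other than C1H replicate 1. In the other direction Ccnd1, which encodes cyclin D1 and is commonly listed as a Wnt target, fell from 30.7 ± 5.07 to 17.5 ± 2.16 CPM (log2 fold change −0.79 ± 0.16, adjusted p = 2.2e-05). Notum, an extracellular inhibitor of Wnt ligands, went from 4.06 ± 3.05 to 1.42 ± 0.89 CPM (adjusted p = 0.042), with overlapping groups and an adjusted p of up to 0.29 when C1 replicate 1, 2 or 3 or C1H replicate 1 or 2 was left out.

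Of the 32 receptors and transducers of the pathway, all tested, 5 rose (15.6%) and 7 fell (21.9%), beside 13.8% and 12.1% of all genes. Tcf7l1, the repressor that β-catenin relieves, fell from 165, 159.7, 145 and 154 CPM to 102, 91.0, 102 and 99.2 CPM, with no overlap (log2 fold change −0.66 ± 0.09, adjusted p = 3.1e-09). Apc, the scaffold of the destruction complex, fell from 170.4 ± 22.0 to 121 ± 5.57 CPM (adjusted p = 4.3e-06). Wls, which carries Wnt ligands to the cell surface, fell from 21.6 ± 1.94 to 13.3 ± 2.16 CPM (adjusted p = 0.0025), a call that was lost when libraries were thinned to equal depth. Among the Frizzled receptors Fzd3 rose from 23.2 ± 4.59 to 39.8 ± 10.8 CPM (log2 fold change 0.76 ± 0.16, adjusted p = 3.5e-05) and Fzd2 from 1.81 ± 1.63 to 5.06 ± 1.21 CPM (log2 fold change 1.34, adjusted p = 0.0071; 2.20 without C1 replicate 1), each with overlap between the groups, whereas Fzd1 stayed under 1 CPM in mean in both groups. Pygo2, a nuclear coactivator, rose from 56.9 ± 6.94 to 74.1 ± 2.93 CPM (adjusted p = 0.0093; 0.072 without C1 replicate 4). Without C1 replicate 1 the risen members of this list numbered 3 in place of 5.

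At the adherens junction 3 of 12 tested members rose and 3 fell, beside 13.8% and 12.1% of all genes. Cdh1, which encodes E-cadherin (GRCm38 chr8:106603351-106670246, plus strand), stood at 216, 228, 251 and 240.2 CPM in C1 and at 575, 569, 540.5 and 652 CPM in C1H. Every C1H library stood far above the C1 range, and the log2 fold change was 1.32 ± 0.08 (adjusted p = 1e-32). Epcam, a homophilic adhesion molecule of epithelia, rose from 30.7 ± 4.94 to 68.6 ± 5.83 CPM (log2 fold change 1.16 ± 0.13, adjusted p = 5.2e-14). Jup, or plakoglobin, the close relative of β-catenin that can take its place at cadherins, fell from between 67.2 and 72.2 CPM in C1 to 46.0, 43.2, 40.3 and 38.7 CPM in C1H (log2 fold change −0.73 ± 0.13, adjusted p = 2.4e-06), and Ctnna1, or αE-catenin, fell from 483 ± 26.4 to 397 ± 32.6 CPM (adjusted p = 0.001). Nectin2 (log2 fold change 0.31 ± 0.11, adjusted p = 0.027) and Cdh2, or N-cadherin (−0.92 ± 0.36, adjusted p = 0.047), were called with overlapping groups. Without single libraries their adjusted p reached 0.26 for Nectin2 (calls lost without C1 replicate 1 or 2 or C1H replicate 1, 2 or 3) and 0.34 for Cdh2 (without C1 replicate 2 or 3 or C1H replicate 1, 3 or 4).

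**Figure D2:**
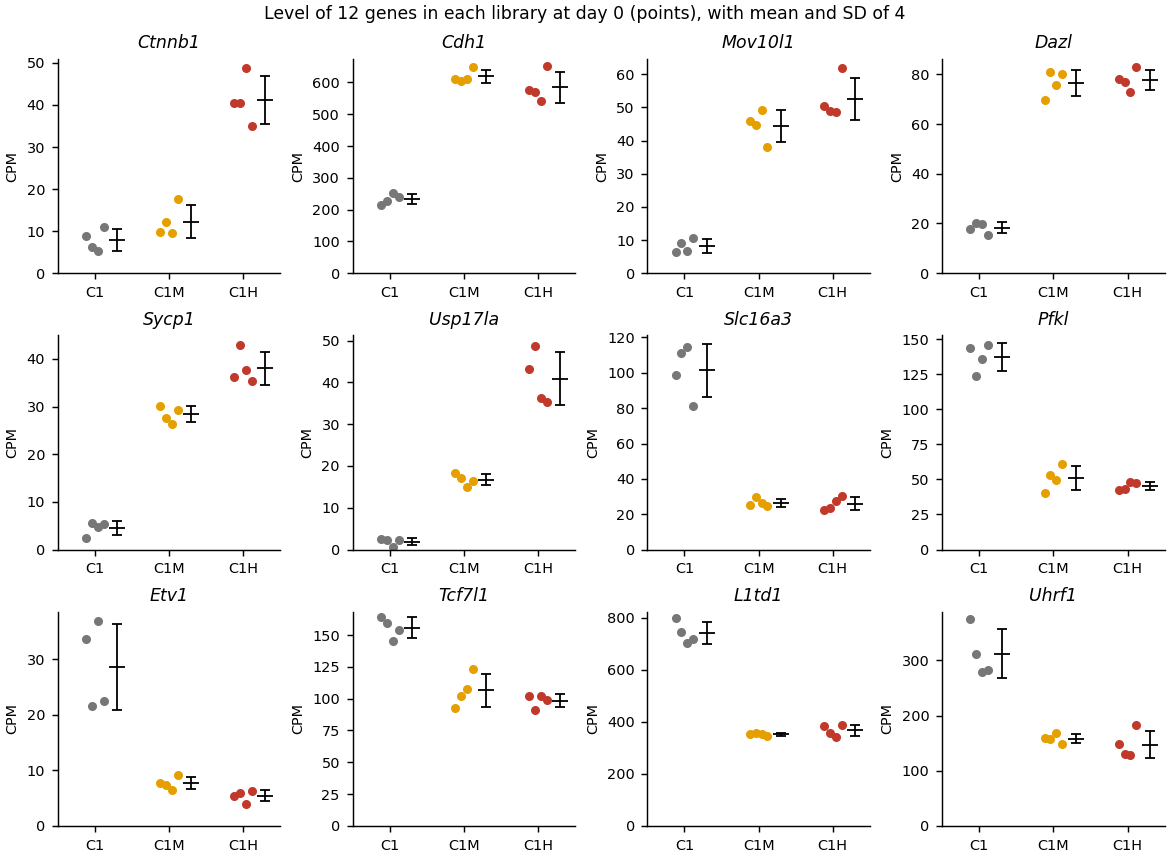
CPM of 12 genes (vertical axes, from 0) in each of the 4 libraries of C1, C1M and C1H (points), with the mean and SD of 4 beside them. The 12 genes were picked for display among called genes without overlap between C1H and C1, and other called genes such as Dnmt1 and Fzd3 do overlap. Ctnnb1 in C1M (12.3 ± 3.84 CPM) lies far nearer to C1 than to C1H.

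Germline and meiosis genes rose nearly throughout the list. Of 27 listed genes 26 passed the filter on low counts (Spo11 did not), 23 of these rose and none fell, beside 13.8% and 12.1% of all genes, with a median log2 fold change of 1.80 where the median of all tested genes was 0.04. Their summed level was 390 to 449 CPM in the C1 libraries and 980 to 1035 CPM in the C1H libraries. The list was drawn up with earlier results of these data known, so its count is a description. Mov10l1, an RNA helicase of piRNA production, rose from 6.30, 9.06, 6.75 and 10.5 CPM to 50.4, 48.8, 48.7 and 61.8 CPM (log2 fold change 2.68 ± 0.19, adjusted p = 8.5e-26). Dazl, an RNA-binding protein of germ cells, rose from 17.6, 20.4, 19.7 and 15.3 CPM to 78.0, 77.1, 72.9 and 82.8 CPM (2.09 ± 0.15, adjusted p = 2.6e-25). In both genes the C1H libraries lay close together and far above the C1 range.

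Genes of the synaptonemal complex and of meiotic cohesin rose beside them. Sycp1, the transverse filament protein, went from 2.52, 5.66, 4.67 and 5.27 CPM to 36.1, 42.9, 37.7 and 35.3 CPM (log2 fold change 3.09 ± 0.23, adjusted p = 1e-24), the largest rise among the germline genes named here. Sycp3, an axial element protein, went from 24.3 ± 2.48 to 60.5 ± 4.63 CPM (1.32 ± 0.14), and Smc1b, the meiotic SMC1 subunit of cohesin, from 19.8 ± 2.77 to 63.0 ± 4.58 CPM (1.67 ± 0.15). Stra8, a gatekeeper of meiotic entry, went from 21.5 to 24.9 CPM in C1 to 71.9 to 82.4 CPM in C1H (1.72 ± 0.16, adjusted p = 1.9e-18). Regulators of germ cell transcription were among them: Taf7l, a germ cell form of a TFIID subunit, rose from 13.5 ± 3.58 to 77.3 ± 6.97 CPM (2.52 ± 0.19), and Brdt, a bromodomain protein of spermatocytes, from 14.9 ± 4.01 to 49.7 ± 5.08 CPM (1.75 ± 0.18). Ddx4, the germ cell helicase also known as Vasa, rose from 4.49 ± 2.47 to 16.5 ± 0.615 CPM (1.82 ± 0.27, adjusted p = 1.3e-08), and Slc25a31, a mitochondrial ADP/ATP carrier of the testis, from 2.45 ± 0.611 to 20.0 ± 1.28 CPM (3.00 ± 0.31). None of these genes had overlapping groups. In C1M, 22 of the 26 rose over C1, beside 14.3% of all genes, and Brdt alone of the list was higher in C1H than in C1M, beside 0.713% of all genes (0.52 ± 0.15, adjusted p = 0.043).

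Of 11 repressors that act on such genes, all tested, none rose and 5 fell, beside 12.1% of all genes and 27.8% of those between 64 and 256 CPM. L3mbtl2, a PRC1.6 subunit, fell from 171, 168, 163 and 150.1 CPM to 104, 104, 112 and 102 CPM (log2 fold change −0.63 ± 0.09, adjusted p = 1.7e-08). Mga, the DNA-binding scaffold of the same complex, fell from 495 ± 21.9 to 393 ± 15.0 CPM (−0.33 ± 0.07, adjusted p = 0.00013). Its partner Max was at 54.1 ± 2.65 CPM in C1 and 52.2 ± 2.63 CPM in C1H (adjusted p = 0.81). The H3K9 methyltransferase genes Ehmt2, or G9a (97.8 ± 13.2 to 68.5 ± 6.83 CPM, adjusted p = 2.3e-05), Ehmt1, or GLP (59.1 ± 7.78 to 42.6 ± 2.04 CPM, adjusted p = 0.0022), and Setdb1 (54.0 ± 6.83 to 39.6 ± 5.62 CPM, adjusted p = 0.0084) fell too.

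Of 12 DNA methylation enzymes none rose and 6 fell, beside 12.1% of all genes. Falls were commoner among highly expressed genes of any kind, at 14.7% of all genes between 16 and 64 CPM, 27.8% between 64 and 256 CPM and 40.9% above, and the members of this list lie on both sides of 64 CPM. Uhrf1, which brings the maintenance methyltransferase to newly replicated DNA, fell from 375, 311, 279.8 and 282 CPM to 149, 130.1, 128 and 182 CPM (log2 fold change −1.09 ± 0.11, adjusted p = 1.9e-10). Dnmt1, the maintenance enzyme itself, went from 222, 226, 168 and 182 CPM to 173, 154, 148 and 159 CPM (−0.33 ± 0.09, adjusted p = 0.0016), where the groups overlapped. Both oxidases of 5-methylcytosine that act in ESCs fell, Tet2 from 498, 452, 447 and 424 CPM to 267, 282, 252 and 265 CPM (−0.77 ± 0.09, adjusted p = 5.8e-12) and Tet1 from 969 ± 55.9 to 702 ± 16.9 CPM (−0.47 ± 0.07, adjusted p = 2.6e-07). The de novo enzyme Dnmt3b and its cofactor Dnmt3l fell as well (adjusted p = 0.0045 and 0.015), the latter with an adjusted p of 0.076 without C1 replicate 3. The list thus holds genes that add and genes that remove methyl groups, and the 6 fallen members include both.

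**Figure D3:**
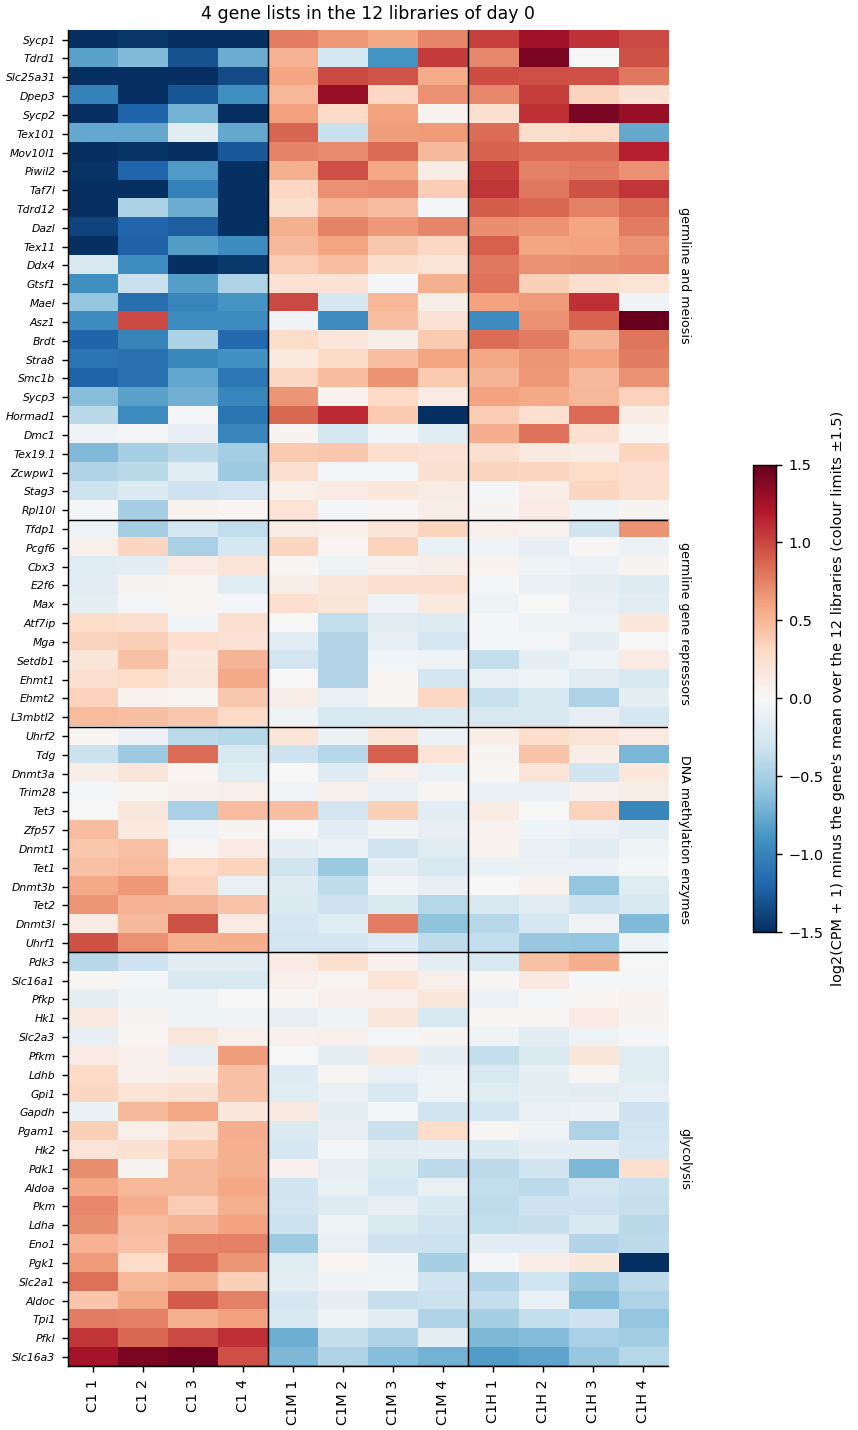
Heat map of the tested members of 4 gene lists (rows) in the 12 libraries of day 0 (columns, grouped as C1, C1M and C1H), coloured by log2(CPM + 1) minus the gene's mean over the 12 libraries. Germline rows turn from blue in C1 to red in C1M and C1H, and most glycolysis rows run the opposite way.

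Transcripts of the two-cell-like state rose from near 0. Of 29 listed genes 17 passed the filter on low counts, and since most were near 0 in C1 they passed through the induced or later groups, which favours large rises among them. As a description, 16 of the 17 rose and none fell, beside 13.8% and 12.1% of all genes and 15.0% and 1.90% of those between 1 and 4 CPM, and the median log2 fold change was 4.26, or 2.49 with levels under the floor set to the floor. The sum over the list was 8.30 to 15.3 CPM in C1, 86.3 to 109 CPM in C1M and 189 to 207 CPM in C1H. Of the 12 not tested, Zscan4a was absent from the deposited counts. Zscan4b, Duxf3, Tdpoz1, Tdpoz2, Tdpoz3, Tdpoz4, Gm16381, Gm4340 and Gm20767 had no read in any C1 or C1H library. Zscan4e and Zscan4f had no read in C1 and at most 3 and 2 reads in a C1H library. The rises thus cover only part of the list. Members of the Zscan4, Usp17-like and Gm families are near-identical copies, and only uniquely aligned reads were counted, so the value of a single copy is uncertain.

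Usp17la, a deubiquitinase gene of this set (GRCm38 chr7:104857009-104862667, plus strand), rose from 2.52, 2.26, 0.519 and 2.40 CPM to 43.3, 48.8, 36.3 and 35.3 CPM (log2 fold change 4.35 ± 0.29, adjusted p = 2.6e-28). Its relative Usp17lc rose from 1.49 ± 0.612 to 22.2 ± 4.21 CPM (3.86 ± 0.34, adjusted p = 1.7e-19). Gm8300 had 1.26, 1.13, 0.519 and 1.44 CPM in C1 and 39.2, 34.5, 39.9 and 29.4 CPM in C1H. Every C1 value of Gm8300 was at most 3 counts, so its size is given as a ratio of pooled counts, 32.7 (exact 95% interval 17.0 to 72.0, counting error only). Zscan4d, a zinc finger factor that marks this state, had 0.42, 0, 0.519 and 0.479 CPM in C1 and 7.50, 8.37, 9.16 and 8.41 CPM in C1H (ratio 22.7, interval 7.52 to 112).

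By the rule for the largest rises (called, no overlap, at least 8 CPM in C1H), 6 of the 12 genes were on chromosome 12, which held 551 of the 15280 tested genes, and several of these are near-identical copies: BB287469 (ratio 54.6, interval 14.8 to 455), Gm21936 (45.3, 12.3 to 378), Gm8300, Gm5662 (27.4, 9.14 to 135), Gm8332 (21.8, 9.82 to 60.3) and Gm2022 (19.8, 7.52 to 74.1). BB287469 stood at 0.42, 0, 0 and 0.479 CPM in C1 and at 13.3, 11.2, 15.0 and 14.3 CPM in C1H. The others were Usp17la, Zscan4d, Tmem92 (20.9, 7.96 to 78.2), A930014E10Rik (23.6, 9.92 to 73.8), AC168977.1, which rose from 1.39 ± 0.765 to 26.6 ± 4.94 CPM, and Gm28940, from 1.22 ± 1.43 to 22.8 ± 4.39 CPM. The last 2 had adjusted p = 1.9e-21 and 1.8e-17, and the log2 fold change of Gm28940 went from 4.16 to 5.38 without C1 replicate 4. All C1 reads of Gm21936 were in C1 replicate 2, and its log2 fold change was 4.77 to 7.71 with single libraries left out. All 12 had a C1H library of at least 6.73 CPM as their lowest, and no C1 library above 3.36 CPM.

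Of 17 naive pluripotency markers 3 rose and 4 fell, and of 16 general markers none rose and 6 fell (1 naive marker rose without C1 replicate 1 or C1H replicate 4), beside 13.8% and 12.1% of all genes and the larger shares of falls among highly expressed genes given above. Pou5f1, or Oct4, had 76.0, 60.0, 79.9 and 59.5 CPM in C1 and 48.04, 41.1, 35.2 and 34.1 CPM in C1H (log2 fold change −0.79 ± 0.12, adjusted p = 7.3e-08). L1td1, an RNA-binding protein of pluripotent cells, fell from 800.4, 746, 703 and 719.6 CPM to 384, 357, 343 and 386 CPM (−1.01 ± 0.07, adjusted p = 1.2e-27). In both genes all C1H libraries were under all C1 libraries.

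Among naive factors Tfcp2l1 fell from 1691 ± 39.2 to 1202 ± 59.0 CPM (log2 fold change −0.49 ± 0.07, adjusted p = 3.2e-10), Klf4 from 1285 ± 109 to 869 ± 55.7 CPM (−0.56 ± 0.08, adjusted p = 4.2e-07), Esrrb from 509 ± 21.1 to 372 ± 7.08 CPM (−0.45 ± 0.08, adjusted p = 9e-06) and Tbx3 from 841 ± 4.82 to 675 ± 23.7 CPM (−0.32 ± 0.08). Tfcp2l1 and Esrrb are known targets of TCF7L1 repression, and Klf4 and Tfcp2l1 also lie downstream of LIF. Fbxo15, an F-box gene used as a marker of pluripotent cells, went against them, from 270.3, 311, 296 and 312 CPM to 831, 869.6, 865 and 919 CPM (1.55 ± 0.07, adjusted p = 8.2e-43). Prdm14, a factor of naive pluripotency and germ cell fate, rose from 36.2 ± 5.17 to 50.2 ± 3.47 CPM (0.47 ± 0.15, adjusted p = 0.015), a call lost without C1 replicate 1 or 3 or C1H replicate 4 (adjusted p up to 0.10). Gbx2 was at 1.16 ± 1.01 and 3.15 ± 1.89 CPM with overlap (adjusted p = 0.04) and lost its call without C1 replicate 1, 2 or 4 or C1H replicate 3 or 4 (adjusted p up to 0.25).

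Glycolysis genes fell as a group: of 22 genes tested, 16 fell (72.7%) and 1 rose, beside 12.1% and 13.8% of all genes and 40.9% falling among those above 256 CPM, with a median log2 fold change of −0.65. Their summed level was 6075 to 6429 CPM in C1 and 3879 to 4088 CPM in C1H. Slc16a3, or MCT4, the exporter of lactate, fell from 98.6, 111, 115 and 81.5 CPM to 22.5, 23.4, 27.5 and 30.3 CPM (−1.97 ± 0.12, adjusted p = 7.8e-31). Pfkl, a phosphofructokinase subunit at the committed step, fell from 144, 124, 135 and 146 CPM to a mean of 45.1 ± 2.91 CPM (−1.61 ± 0.10, adjusted p = 5.5e-30). In both genes every C1H library was far under every C1 library.

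Enzymes further down the pathway fell too. Aldoa, an aldolase, went from 2134 ± 73.4 to 1158 ± 42.8 CPM (log2 fold change −0.88 ± 0.07), Pkm, the muscle-type pyruvate kinase, from 721 ± 70.9 to 389 ± 8.19 CPM (−0.89 ± 0.07) and Ldha, a lactate dehydrogenase subunit, from 674 ± 49.1 to 359 ± 19.4 CPM (−0.91 ± 0.07), with adjusted p of 9.4e-25, 1.1e-22 and 3e-22. The glucose transporters parted: Slc2a1, or GLUT1, fell from 77.7 ± 11.3 to 38.8 ± 2.92 CPM (−1.01 ± 0.12, adjusted p = 4.9e-11), whereas Slc2a3, or GLUT3, stood at 533 ± 44.9 and 489 ± 19.3 CPM and was not called (adjusted p = 0.2; 0.043 without C1 replicate 1). Pdk3, a kinase that restrains pyruvate dehydrogenase, was the risen member (0.51 ± 0.18, adjusted p = 0.025), with overlapping groups and a call lost without C1 replicate 1 or 2 or C1H replicate 2 or 3 (adjusted p up to 0.19). When single libraries were left out, 15 to 17 members fell.

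Cholesterol synthesis genes fell with smaller sizes. Of 23 genes 12 fell (52.2%) and 1 rose, beside 12.1% and 13.8% of all genes and 27.8% to 40.9% falling among those above 64 CPM, with a median log2 fold change of −0.33. Hmgcs1, the HMG-CoA synthase, fell from 574 ± 18.7 to 418 ± 25.8 CPM (−0.46 ± 0.07, adjusted p = 3.7e-08) and Pmvk, the phosphomevalonate kinase, from 247 ± 18.3 to 165 ± 6.61 CPM (−0.59 ± 0.08, adjusted p = 1.3e-09). Ebp, a sterol isomerase, was the risen member (0.33 ± 0.11, adjusted p = 0.015), a call lost without C1 replicate 1 or 3 or C1H replicate 1 or 2 (adjusted p up to 0.088).

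**Figure D4:**
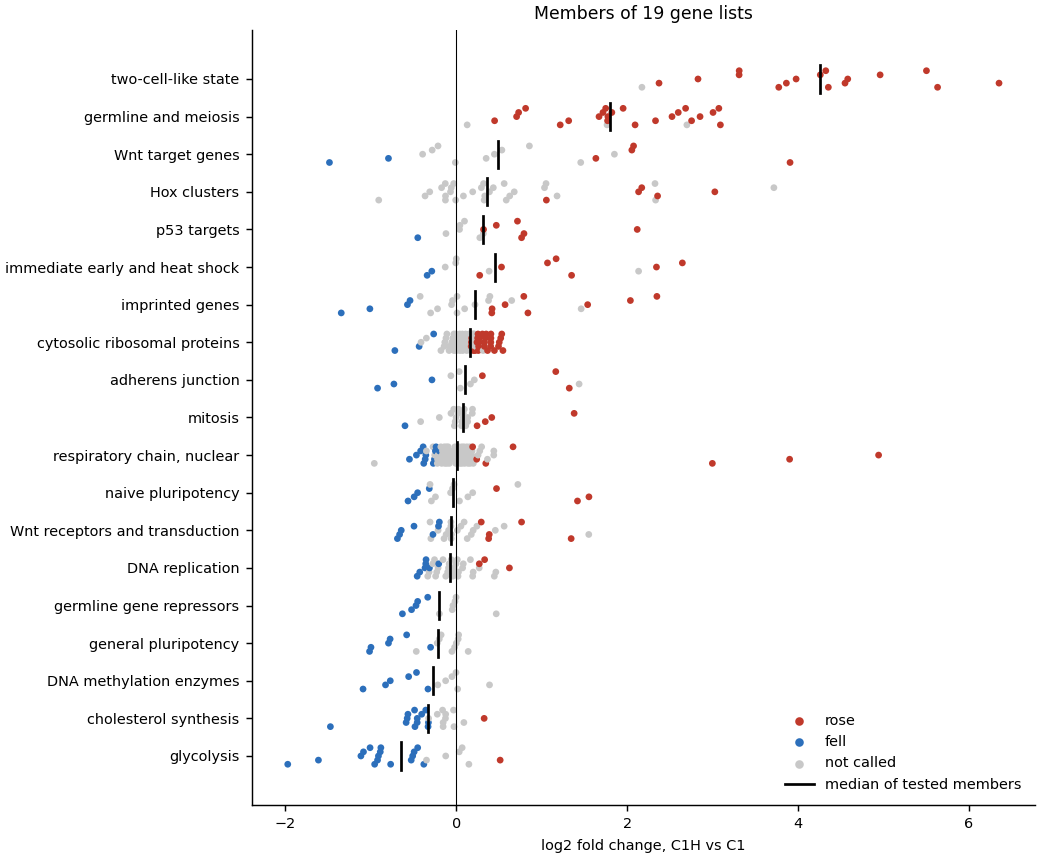
Log2 fold change of C1H vs C1 (horizontal axis) for every tested member of 19 gene lists (rows), with a black bar at each list's median and colour by call. Two-cell-like and germline genes lie to the right (medians 4.26 and 1.80), glycolysis and cholesterol synthesis to the left (−0.65 and −0.33), and most other lists straddle 0.

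Changes of most ribosomal protein genes were small. Since only uniquely aligned reads were counted, levels of genes with near-identical copies in the genome may be understated, in this list and in others. Of 81 cytosolic ribosomal protein genes 30 rose and 3 fell, beside 13.8% and 12.1% of all genes, with a median log2 fold change of 0.17, but without C1 replicate 1 the risen number was 16. Rplp0, a protein of the ribosomal stalk, rose from 419, 389, 425 and 459 CPM to 573, 597, 640.5 and 639 CPM (0.53 ± 0.07, adjusted p = 1.4e-10), and Rps10, of the small subunit, from 559.8 ± 53.3 to 762 ± 14.9 CPM (0.45 ± 0.07, adjusted p = 2.2e-08). In C1M, 59 of the 81 rose over C1, beside 14.3% of all genes. Of 83 nuclear genes of the respiratory chain 7 rose and 12 fell. With library sizes alone the numbers were 16 and 7, and without C1 replicate 1, C1H replicate 1 or C1H replicate 2 the risen numbered 4. Of 12 genes of the mitochondrial genome 4 rose and 1 fell, among them mt-Cytb, a cytochrome of complex III (0.57 ± 0.13, adjusted p = 0.0013; not called at equal depth), and mt-Nd1, of complex I (−0.43 ± 0.09, adjusted p = 0.00025).

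Of 20 G1 cyclins, kinases and inhibitors 6 rose and 3 fell, beside 13.8% and 12.1% of all genes. Cdkn1a, or p21, rose from 228, 232, 237 and 265 CPM to 379.6, 366, 393 and 441 CPM (log2 fold change 0.72 ± 0.08, adjusted p = 2.8e-12), and Cdkn1c, or p57, an imprinted inhibitor, from 3.09 ± 0.858 to 9.03 ± 1.95 CPM (adjusted p = 5.9e-05). Cdkn1b, or p27, fell from 138 ± 22.7 to 84.9 ± 8.17 CPM (−0.70 ± 0.10, adjusted p = 3.7e-09), as did Cdk4, the partner of D-type cyclins, from 159 ± 15.1 to 115 ± 8.39 CPM (−0.47 ± 0.09, adjusted p = 8.1e-06). Of 38 DNA replication genes 3 rose (7.89%) and 7 fell (18.4%), and the risen numbered 1 without C1 replicate 2 or C1H replicate 1 or 2 and 0 without C1H replicate 4. Mcm3, of the replicative helicase, fell from 917 ± 95.2 to 682 ± 18.1 CPM (−0.43 ± 0.07, adjusted p = 2.9e-08). Of 24 mitotic genes 4 rose and 1 fell (2 rose without C1 replicate 1 or 3 or C1H replicate 2 or 3), with Pttg1, or securin, rising from 109, 113, 131 and 147 CPM to 320.3, 299.5, 344 and 336 CPM (1.38 ± 0.09, adjusted p = 3.1e-29).

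Of 13 p53 targets tested 6 rose and 1 fell, beside 13.8% and 12.1% of all genes. Besides Cdkn1a, Pmaip1, or NOXA, a BH3-only death factor, rose from 2.10, 6.79, 5.19 and 3.36 CPM to 19.08, 18.1, 16.9 and 19.3 CPM (log2 fold change 2.12 ± 0.26, adjusted p = 1e-11), and Mdm2, the ubiquitin ligase of p53, from 146 ± 20.0 to 203 ± 12.5 CPM (0.47 ± 0.08, adjusted p = 2.7e-06). Bax, a pore-forming death factor, went from 150.0 ± 21.6 to 110.0 ± 12.0 CPM (adjusted p = 0.039), a call lost without C1 replicate 1 or 4 or C1H replicate 3 or 4 (adjusted p up to 0.12). Of 14 immediate early and heat shock genes 7 rose and 2 fell. When any 1 library was left out 5 or 6 rose, and 1 fell without C1 replicate 1 or C1H replicate 1 or 4. Dnajb1, an HSP40 cochaperone, rose from 73.2 ± 9.41 to 165 ± 7.50 CPM (1.17 ± 0.10, adjusted p = 1.7e-18), and Hspa1a, an inducible HSP70, from 0.42, 1.70, 2.595 and 1.92 CPM to 8.52, 11.5, 9.89 and 11.4 CPM (2.65 ± 0.43, adjusted p = 2.1e-07). Of 28 genes of the integrated stress response 6 rose (21.4%) and 4 fell (14.3%). Its central factor Atf4 fell from 2203 ± 103 to 1704 ± 91.6 CPM (−0.37 ± 0.06, adjusted p = 6.7e-07), while Psat1, of serine synthesis (0.58 ± 0.09, adjusted p = 4.8e-08), and Ddit4, an inhibitor of mTORC1 (0.94 ± 0.19, adjusted p = 0.00061), rose. Sorting by fluorescence was done with another gate in C1, and its part in the stress genes was not tested.

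ERK feedback genes were called about as often as all genes, 1 of 14 rising and 2 falling (2 rose without C1 replicate 2 or C1H replicate 2). Spry2, an inhibitor of receptor tyrosine kinase signalling, rose from 44.1, 31.7, 48.3 and 38.4 CPM to 97.4, 80.5, 92.7 and 94.6 CPM (log2 fold change 1.16 ± 0.11, adjusted p = 5.5e-18). Etv4, an ETS factor induced by ERK, fell from 37.8, 23.8, 15.6 and 33.1 CPM to 7.16, 8.72, 5.50 and 5.05 CPM (−2.06 ± 0.23, adjusted p = 7.8e-11). Its relative Etv5 went from 359 ± 44.0 to 272 ± 13.4 CPM (−0.40 ± 0.13, adjusted p = 0.022), not called without C1 replicate 3 or 4 or C1H replicate 1 (adjusted p up to 0.077). Of 11 LIF and STAT3 genes 5 rose and 2 fell, beside 13.8% and 12.1% of all genes, the falls being Tfcp2l1 and Klf4 above. Pim3, a serine/threonine kinase, rose from 87.6 ± 7.88 to 133 ± 9.05 CPM (0.60 ± 0.10, adjusted p = 9.1e-08) and Socs3, a feedback inhibitor of the receptor, from 47.6 ± 10.0 to 79.1 ± 6.32 CPM (0.75 ± 0.13, adjusted p = 1.1e-06). When any 1 library was left out the risen members of this list numbered at most 4. They numbered 2 without C1 replicate 1 and 3 without C1 replicate 3, C1H replicate 2 or C1H replicate 4.

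The lineage lists were short and their counts moved with single libraries. Of 12 neuroectoderm genes tested 4 rose and 2 fell, of 12 formative epiblast genes 2 rose and 3 fell, of 15 mesoderm genes 1 rose and 2 fell, of 19 endoderm genes 2 rose and 3 fell, and of 13 trophectoderm genes 1 rose and none fell, beside 13.8% and 12.1% of all genes. With single libraries left out, the risen numbered 1 in the formative list without any library other than C1H replicate 2 or 4, 4 in the endoderm list without C1 replicate 1 and 1 without C1 replicate 3 or 4, and 2 in the trophectoderm list without C1 replicate 4 or C1H replicate 1. In the mesoderm list none rose without C1 replicate 3 or C1H replicate 2, 2 rose without C1 replicate 1 or C1H replicate 4, none fell without C1 replicate 4, and 1 fell without C1 replicate 2 or 3 or C1H replicate 3. The median log2 fold change was 0.82 in the neuroectoderm list and 0.71 in the endoderm list, or 0.34 and 0.26 with levels under the floor set to the floor, where all tested genes had 0.04, those between 1 and 4 CPM 0.36 and those under 1 CPM 0.75. Sox11, a factor of neural progenitors, rose from 11.2 ± 2.21 to 29.9 ± 2.93 CPM (log2 fold change 1.42 ± 0.17, adjusted p = 3e-12), while Ncam1, a neural adhesion molecule, fell from 224 ± 22.2 to 149.7 ± 14.4 CPM (−0.59 ± 0.08, adjusted p = 3.7e-09). In the endoderm list Sparc, a matrix glycoprotein, fell from 1410, 1227, 1208 and 1472 CPM to 768, 749, 708 and 795 CPM (−0.82 ± 0.07, adjusted p = 1.4e-21) and Lamb1, a laminin chain, rose from 62.8 ± 5.67 to 106 ± 9.32 CPM (0.75 ± 0.10, adjusted p = 2.8e-09). The endoderm regulators Gata4 (3.86 ± 2.44 and 6.74 ± 1.05 CPM, adjusted p = 0.056) and Gata6 (1.26 ± 1.15 and 2.80 ± 1.01 CPM, adjusted p = 0.12) were not called, but had an adjusted p of 0.0087 without C1 replicate 2 and of 0.019 without C1 replicate 1. Nodal, which patterns the early embryo, fell from 67.6 ± 6.08 to 52.6 ± 2.46 CPM (adjusted p = 0.018; 0.081 without C1 replicate 4), and T, the primitive streak factor, was too low to be tested. Esx1, a placental homeobox gene, rose from 2.52, 0, 0.519 and 0.959 CPM to 10.6, 9.41, 16.9 and 13.9 CPM (3.46 ± 0.43, adjusted p = 2e-11; 4.45 without C1 replicate 1). In the fibroblast list Thy1, a surface protein also made by other cell types, rose from 0.721 ± 0.212 to 10.8 ± 0.525 CPM (ratio of pooled counts 14.7, interval 6.56 to 40.9, adjusted p = 2.2e-12), while Col1a1, a defining collagen, was at 5.15 ± 0.487 CPM in C1 and 2.10 ± 0.252 CPM in C1H (adjusted p = 0.033; up to 0.065 without C1 replicate 1 or 2 or C1H replicate 1, 3 or 4).

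Of 25 imprinted genes 8 rose (32%) and 4 fell (16%), beside 13.8% and 12.1% of all genes. Meg3, a maternally expressed long RNA, rose from 885, 752, 851 and 851 CPM to 1408, 1455, 1416 and 1498 CPM (log2 fold change 0.79 ± 0.08, adjusted p = 1.2e-12), and Phlda2, a growth-restraining gene of the placenta, from 3.33 ± 1.00 to 13.7 ± 1.89 CPM (2.04 ± 0.31, adjusted p = 1.9e-08). Peg10, a retrotransposon-derived gene, fell from 202 ± 17.5 to 79.5 ± 4.80 CPM (−1.35 ± 0.10, adjusted p = 1.1e-25) and Zdbf2 from 153 ± 13.0 to 75.8 ± 6.27 CPM (−1.01 ± 0.10, adjusted p = 1.5e-15). The risen members included maternally expressed genes (Meg3, Phlda2, Cdkn1c) and paternally expressed ones (Mest, Magel2, Sfmbt2). Of 34 Hox genes 5 rose (14.7%, near the share of all genes) and none fell, and 2 rose without C1 replicate 1 (3 without C1 replicate 2 or 3). Hoxa9, a posterior Hox gene, went from 3.78, 5.10, 5.71 and 3.84 CPM to 21.8, 20.2, 14.7 and 24.0 CPM (2.13 ± 0.30, adjusted p = 2e-09). Of 10 primordial germ cell genes 3 rose and 1 fell (1 rose without C1 replicate 1 or 3), beside 13.8% and 12.1% of all genes. Kit, the receptor of stem cell factor, rose from 128 ± 22.9 to 216 ± 16.4 CPM (0.74 ± 0.10) and Ifitm1, a membrane protein, fell from 169 ± 6.69 to 70.2 ± 4.59 CPM (−1.27 ± 0.12, adjusted p = 1.1e-13). Of 7 interferon response genes 1 rose.

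The largest falls by the same rule as the largest rises were in Lrrc55, Etv1, Kbtbd11, Msln, Sema5b, Lgals3, Mdga1, Mmp14, Etv4, Dusp27, Mmrn2 and Prmt8, with log2 fold changes between −3.70 and −2.01. Lrrc55, an auxiliary subunit of potassium channels, went from 28.1, 13.0, 11.4 and 20.1 CPM to 1.70, 0.349, 0.366 and 3.36 CPM (−3.70 ± 0.36, adjusted p = 1.4e-15; −4.43 without C1H replicate 4). Etv1, another ETS factor of the Etv4 family, went from 33.6, 21.5, 36.9 and 22.5 CPM to 5.45, 5.93, 4.03 and 6.31 CPM (−2.40 ± 0.22, adjusted p = 5.5e-18). Kbtbd11, a kelch repeat gene, fell from 89.4 ± 8.25 to 17.4 ± 2.74 CPM (−2.36 ± 0.15, adjusted p = 3.1e-30). Among the others, Msln is mesothelin, Sema5b a semaphorin, Mdga1 a membrane-anchored adhesion protein, Mmp14 a membrane metalloprotease and Mmrn2 a multimerin, with log2 fold changes of −2.29, −2.28, −2.07, −2.07 and −2.01. Lgals3, or galectin-3, fell from 71.8 ± 5.94 to 16.7 ± 5.70 CPM (−2.11 ± 0.16). Prmt8, an arginine methyltransferase, fell from 84.7 ± 12.5 to 21.2 ± 4.02 CPM (−2.01 ± 0.15), and Dusp27, an atypical phosphatase, from 75.5 ± 3.85 to 18.3 ± 4.48 CPM (−2.04 ± 0.15).

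Ranked instead by the difference in mean CPM, the 6 leading rises were Malat1, mt-Cytb, Meg3, Fbxo15, Prps1 and Rpl37, and the 6 leading falls Hsp90ab1, Actb, Eif2s2, mt-Nd1, Mt1 and Aldoa. Malat1, a nuclear long RNA, had 10225, 9036, 8992 and 8058 CPM in C1 and 11761, 11392, 11294 and 12792 CPM in C1H (log2 fold change 0.38 ± 0.12, adjusted p = 0.02), and its call was lost without C1 replicate 4 or C1H replicate 4 (adjusted p up to 0.077). Prps1, which makes the ribose precursor of nucleotides, rose from between 215 and 288 CPM to between 569 and 613 CPM (1.31 ± 0.08, adjusted p = 8.9e-33), and Rpl37, a ribosomal protein gene, from 1385 ± 179 to 1740 ± 15.4 CPM (0.33 ± 0.09, adjusted p = 0.005; 0.058 without C1 replicate 1). Mt1, a metallothionein, fell from 3087, 2872, 3040 and 3372 CPM to 1429, 1426, 1543 and 1576 CPM (−1.05 ± 0.07, adjusted p = 7.8e-31). Hsp90ab1, a constitutive HSP90, fell from 14082 ± 1672 to 10656 ± 205 CPM (−0.40 ± 0.06), Actb, cytoplasmic actin, from 6766 ± 482 to 4578 ± 93.4 CPM (−0.56 ± 0.06) and Eif2s2, the β subunit of eIF2, from 6860 ± 460.1 to 4891 ± 176 CPM (−0.49 ± 0.06). The median change was −0.03 to 0.15 on the log2 scale across chromosomes.

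The high fraction was then set against the middle fraction, which had the same dox and TMP and a lower mCherry gate. Ctnnb1 had 9.76, 12.1, 9.45 and 17.7 CPM in C1M, under every C1H library, and was higher in C1H by 1.76 ± 0.18 on the log2 scale (adjusted p = 1.6e-13). Only 1.77% of tested genes differed between the 2 fractions, 109 higher (0.713%) and 162 lower (1.06%) in C1H. This count of 271 was 570 with only these 2 groups in the fit, and fell to 116 without C1M replicate 2, 134 without C1H replicate 1, 141 without C1H replicate 2 and 171 without C1M replicate 1. Beside it, C1M against C1 called 14.3% of genes as higher and 12% as lower; these 2 comparisons use the same C1 libraries, so their agreement is not counted here. Of the 2113 genes that rose in C1H over C1, 59 were also higher in C1H than in C1M and 18 lower, and of the 1852 that fell, 58 were also lower and 14 higher. Both comparisons use the same C1H libraries, which favours the same direction, so these counts are a description. The remaining 122 of the 271 genes were not called between C1H and C1.

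Besides Ctnnb1, the leading genes that were higher in C1H than in C1M were Usp17la, Gm21761 and Dst. Usp17la had 18.3, 17.0, 15.0 and 16.5 CPM in C1M, between C1 and C1H without overlap (C1H over C1M 1.30 ± 0.19, adjusted p = 9.6e-07), and 7 of the 17 two-cell-like genes tested were higher in C1H than in C1M, beside 0.713% of all genes. Most of these 17 passed the filter on low counts through groups in which they are high, so the count is a description. Gm21761 went through 7.06 ± 0.935 CPM in C1, 39.6 ± 5.57 CPM in C1M and 68.5 ± 4.45 CPM in C1H (C1H over C1M 0.78 ± 0.12, adjusted p = 8.7e-06). Dst, or dystonin, a linker of the cytoskeleton, did not follow such an order: it was at 729.7 ± 46.1 CPM in C1, 460.4 ± 63.3 CPM in C1M and 644 ± 35.6 CPM in C1H. The leading genes that were lower in C1H than in C1M were Rps24, Rps12, Rps25 and Atp6v1f. Rps24, of the small ribosomal subunit, stood at 1922 ± 113 CPM in C1, 2586 ± 138 CPM in C1M and 1886 ± 38.3 CPM in C1H (C1H over C1M −0.46 ± 0.06, adjusted p = 2.2e-07). Rps12 (−0.41 ± 0.06) and Rps25 (−0.39 ± 0.06) were likewise highest in C1M. Atp6v1f, a subunit of the vacuolar proton pump, was at 362 CPM in mean in C1, 425 CPM in C1M and 308 CPM in C1H (C1H over C1M −0.46 ± 0.07, adjusted p = 7.2e-06), and was also lower in C1H than in C1 (−0.23 ± 0.07, adjusted p = 0.012; 0.080 without C1 replicate 4). None of the 81 ribosomal protein genes was higher in C1H than in C1M, and 28 were lower, beside 0.713% and 1.06% of all genes. None of the 22 glycolysis genes differed between the 2 fractions, which is near the share of all genes that did (1.77%). Slc16a3 was at 26.5 ± 2.25 CPM in C1M and 25.9 ± 3.64 CPM in C1H.

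At day 4 of differentiation in NDiff227, cells of the same high fraction kept in dox and TMP (C1HDT, 4 cultures) could be set against cells of C1 kept in TMP alone (C1T, 4 cultures), which share no library with C1H and C1. There 33.5% of the genes tested differed, 17.4% higher and 16.1% lower in C1HDT. Ctnnb1 was at 9.74 CPM in mean in C1T and 30.8 CPM in C1HDT (log2 fold change 1.62 ± 0.21, adjusted p = 2.2e-11). Of the 2113 genes that rose at day 0, 554 (26.2%) were higher and 231 (10.9%) lower at day 4, and the 554 were 20.8% of the genes higher at day 4. Of the 1852 that fell at day 0, 688 (37.1%) were lower and 340 (18.4%) higher at day 4, and the 688 were 27.96% of the genes lower at day 4. The difference between the 2 effects passed its own test for 25.2% of genes, 12.7% with a higher and 12.6% with a lower effect at day 4. Among these were 866 of the genes that had risen, with a lower effect at day 4, and 785 of those that had fallen, with a higher one. Such genes were chosen by their day 0 calls, and the same day 0 values enter the difference. A smaller effect at day 4 is therefore favoured, and the 2 counts are a description.

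**Figure D5:**
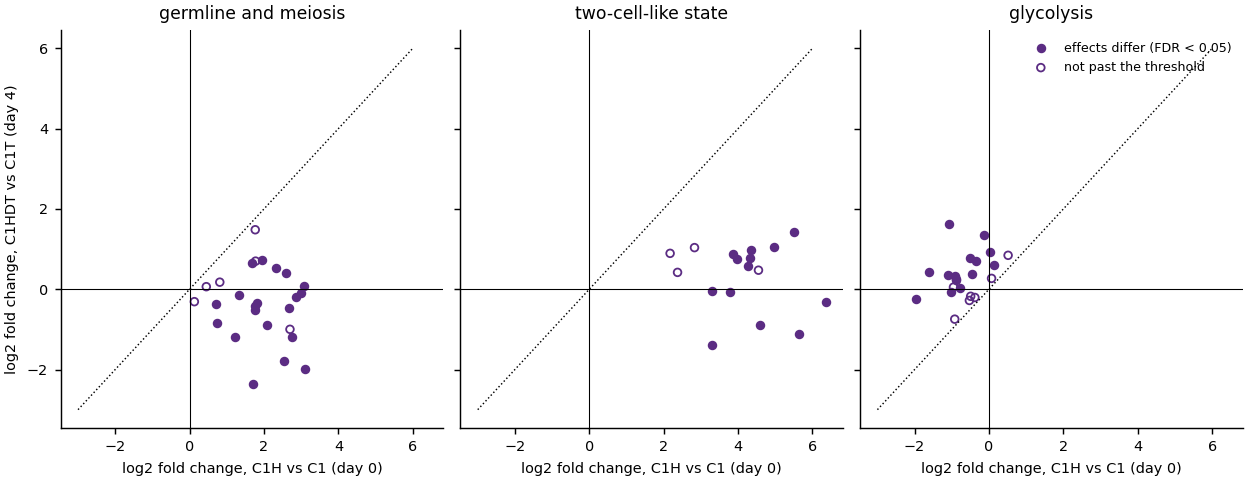
Log2 fold change at day 4 (C1HDT vs C1T, vertical axis) against that at day 0 (C1H vs C1, horizontal axis) for the tested members of 3 gene lists, filled where the 2 effects differed (FDR < 0.05), with a dotted line of equal effects. Most germline and two-cell-like genes lie below the line and most glycolysis genes above it.

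Of the 26 germline genes 2 were higher and 8 lower in C1HDT, beside 17.4% and 16.1% of all genes, and 20 had an effect at day 4 that was lower than at day 0, beside 12.6% of all genes. The gene lists were drawn up with earlier results of these data known, and the day 0 values enter the difference. Counts of list members with differing effects are therefore a description. Sycp1 had 33.1, 30.8, 23.8 and 21.5 CPM in C1T and 6.12, 6.69, 9.64 and 5.79 CPM in C1HDT, the reverse of its order at day 0. Its log2 fold change was −1.98 ± 0.21 at day 4, and differed from that of day 0 by −5.07 ± 0.32 (adjusted p = 3.9e-31). Of the 17 two-cell-like genes 4 were higher and none lower at day 4, and 13 had a lower effect than at day 0, with Gm8300 at 2.64 CPM in mean in C1T and 5.65 CPM in C1HDT. Of the 22 glycolysis genes 14 were higher and 3 lower at day 4, and 15 had a higher effect, with Pfkl at 183, 233, 185 and 210 CPM in C1T and 248, 290.0, 264 and 298 CPM in C1HDT. Cdh1 was lower at day 4, at 299.8 CPM in mean in C1T and 179 CPM in C1HDT (−0.74 ± 0.08, adjusted p = 2.2e-14). Sparc turned from a fall to a large rise, from 218 CPM in mean in C1T to 3241 CPM in C1HDT (3.90 ± 0.08), one of 15 endoderm genes higher at day 4. Lrrc55 was lower on both days, at 15.8 CPM in mean in C1T and with no read in 3 of the 4 C1HDT libraries.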

How the data were processed

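The 32 QuantSeq libraries (100-base single reads) were taken as deposited. The authors trimmed reads with bbduk (bbmap suite 37.31), aligned them to mm10 (Ensembl release 93) with STAR 2.6.0a3, and deposited 1 table of raw counts of uniquely aligned reads per library and gene, made with htseq-count, for 31053 gene identifiers. Symbols and coordinates came from the GENCODE M21 annotation of GRCm38, which held 31011 of the identifiers. Lines that name no gene were left out of library sizes, and the share of reads on no gene is given in the report. Groups were taken from the sample labels. The labels call the replicates biological and the study describes the 4 samples of a group as coming from one experiment, so p-values measure the spread within that experiment.

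A gene had to reach 1 CPM in 4 or more libraries and was then tested with the quasi-likelihood test of edgeR 4.0.16 (R 4.3.3), with TMM factors, all 8 groups in 1 fit and Benjamini-Hochberg adjustment over all 15280 tested genes, at a threshold of 0.05. Per-library values are CPM with TMM scaling, fold changes are those of the fit, and errors are SD for levels and SE for log2 fold changes. Ratios of genes with at most 3 counts in every C1 library are of pooled counts with an exact 95% interval, which covers counting error only, since reads carry no molecular identifiers. Shares and gene numbers per library were compared by exact two-sided permutation tests. The fit was also run on simulated counts with known fold changes in a small share of genes in C1H alone. Changes in the real data were far more widespread, so no support for the results is drawn from that run.

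Alternatives were DESeq2 1.42.0, RLE factors, library sizes alone, the likelihood ratio test, other filters on low counts, a fit restricted to the compared groups, replicate number as a block, and each library left out in turn. Thinning of the counts to equal depth was added after seeing the data. Named genes were Ctnnb1 and Axin2, the first members and the called members with the smallest p of each of 32 gene lists, the 12 largest changes in each direction by log2 fold change (called, no overlap between groups, mean of at least 8 CPM in the higher group), the 6 largest in each direction by difference in mean CPM, and the 4 with the smallest p in each direction of C1H vs C1M. The members and lists were chosen with earlier results of these data known. Replicate pairs of a group differed by more than sampling noise in all 12 pairs (chi-square per degree of freedom of 1.71 to 4.31), so none was counted as a duplicate. Same-numbered C1 and C1H libraries correlated by 0.006 to 0.041 in their deviations from the group means, and the numbers were not taken as pairs. A few genes that this rule names are not reported here.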

Additional observations from a re-analysis of the deposited data

Results flagged for a closer look

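Of 18 genes for which the effect of the high fraction was compared between day 0 (C1H vs C1) and day 4 (C1HDT vs C1T), 16 differed in edgeR's test of the difference, beside 25.2% of all genes. Most were named for a large change at day 0, and the same day 0 values enter the difference, so a smaller effect at day 4 is favoured by the choice of genes and the count is a description. The effect was lower at day 4 for Sycp1 by −5.07 on the log2 scale (adjusted p = 3.9e-31), Gm8300 by −3.90 (adjusted p = 1.8e-08), Zscan4d by −3.55 (adjusted p = 0.0013), Usp17la by −3.37 (adjusted p = 4.6e-07), Mov10l1 by −3.16 (adjusted p = 2.1e-17), Lrrc55 by −3.04 (adjusted p = 0.019), Dazl by −2.97 (adjusted p = 8.1e-20), Cdh1 by −2.06 (adjusted p = 3.4e-36) and Spry2 by −1.40 (adjusted p = 8.8e-17). It was higher at day 4 for Sparc by 4.71 (adjusted p = 9.6e-86), Pfkl by 2.05 (adjusted p = 2.3e-29), Slc16a3 by 1.72 (adjusted p = 7.2e-20), Etv1 by 1.70 (adjusted p = 4.9e-07), Etv4 by 1.68 (adjusted p = 6.5e-07), Aldoa by 1.12 (adjusted p = 2.6e-21) and Hsp90ab1 by 0.26 (adjusted p = 0.013). Gm8300 and Zscan4d had at most 3 counts in every C1 library and Lrrc55 no read in 3 of the 4 C1HDT libraries, so the sizes given for these 3 depend on the fit and are no bounds. The medium and the time in culture also differ between the days.

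A library far from the other 3 of its group was found by Dixon's test in 25 of 426 groups of 4 looked at, where chance alone gives about 1 in 20. In C1 the library that stood high was at 5.10 CPM for Nkd1 (others 0.839 to 1.44), 3.36 for Slc25a31 (2.08 to 2.26), 3.36 for Gm28940 (0.42 to 0.566), 8300 for mt-Nd1 (7259 to 7373), 197 for Ttr (152 to 158) and 115 for Ier2 (86.8 to 91.2). The library that stood low in C1 was at 0.519 CPM for Usp17la (2.26 to 2.52), 118 for Mcm2 (138 to 142), 32.2 for Lifr (44.6 to 45.9) and 11.9 for Rps27rt (17.6 to 18.5). In C1H the library that stood high was at 61.8 CPM for Mov10l1 (48.7 to 50.4), 9.76 for Prdm1 (2.56 to 3.78), 15.0 for Vldlr (9.67 to 10.6) and 11.4 for Hoxd11 (7.84 to 8.43), and the low one at 14.3 CPM for Ccnd1 (18.1 to 18.8), 18.1 for Slc25a31 (20.5 to 20.8), 370.4 for Mga (397 to 402) and 5.86 for Kdr (8.83 to 9.41). A few reads made up the flags of Gm21936 (1.13 CPM in one C1 library, 0 in the others), Hoxb1 (0.479), Cdx2 (0.959) and H19 (2.26) in C1 and of Igf2 (0.42) and Col1a2 (2.20) in C1H. One C1H library had 15585 genes detected at equal depth, above the others. In Mov10l1, Slc25a31, Ccnd1 and Mga the outlying library remained outside the range of the other group.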

How the results depend on the processing

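The number of genes called in C1H vs C1 was 3965, between 3162 and 4284 under the other tests, scalings and filters, and between 3321 and 3626 with single libraries left out. It was 3889 with replicate number as a block, against 271 and 262 for C1H vs C1M, 5124 and 5074 for C1HDT vs C1T and 3852 and 3821 for the difference between days. Same-numbered C1 and C1H libraries correlated by 0.006 to 0.041 in their deviations, and other pairs by −0.056 to 0.026. In 3 of 4 C1 libraries the closest C1H library was the one of the same number. Correlations this small do not settle whether the numbers mark pairs, and they were not taken as pairs. The count in C1H vs C1M was 570 with only its groups in the fit and 116 to 234 with single libraries left out, and the cause of the difference was not tested. The span of the chromosome medians was 0.176 on the log2 scale, 0.132 with at least 1 CPM in all libraries, 0.135 with no filter, 0.141 for genes at 8 CPM or more (chosen after seeing the data) and 0.180 to 0.210 with single libraries left out. The difference in reads off genes was 2.11 to 2.55 points and that in detected genes 912 to 963 with single libraries left out, where 3 against 4 allows no exact p under 0.0571. No two-cell-like gene passed a filter of at least 1 CPM in all libraries, by construction. For 210 named genes 3304 of 3494 alternatives kept direction and call, 158 lost and 18 gained a call and 14 turned direction, all of the last in genes not called. These were Max (0.032), Nanog (0.052), Rps24 (0.050) and Il6st (0.018) with library sizes alone, Mcm2 (−0.0086) and Ccnb1 (−0.015) at equal depth, and, with single libraries left out, Otx2 (−0.0038 to 0.16), Mcm2 (−0.063 to 0.053) and Ccnb1 (−0.012 to 0.047). With 1797132 to 2840414 reads a library, genes near the floor of about 1 CPM could not be compared.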

Other observations

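The germ layer and epiblast lists held further single changes. Among formative epiblast genes Sox3, a SoxB1 factor, rose from 1.15 ± 0.769 to 4.45 ± 0.809 CPM (SD, n = 4; log2 fold change 1.95 ± 0.47, adjusted p = 0.00066), while Foxd3 (−0.77 ± 0.18, adjusted p = 0.00025) and Tead2 (−0.33 ± 0.09, adjusted p = 0.0033) fell. Otx2, a factor of the primed epiblast, was at 74.9 ± 11.5 and 78.7 ± 5.71 CPM and was not called, and Fgf5 stayed under 1 CPM in mean in both groups. Pou3f1 rose (0.98 ± 0.36, adjusted p = 0.042), a call that was kept when C1H replicate 2 or 4 was left out and lost without any other library (adjusted p up to 0.18). In the neural list Pax3 went from 0.614 to 3.89 CPM (ratio of pooled counts 6.28, exact 95% interval 2.49 to 20.3) and Zic1 from 0.355 to 2.34 CPM (6.48, 1.99 to 33.5; adjusted p = 0.056 without C1 replicate 2), Sox1 fell (−0.59 ± 0.17, adjusted p = 0.0039), and Pax6, at 0.576 and 1.76 CPM, was not called. In the mesoderm list Kdr, a VEGF receptor, fell with adjusted p = 0.039 and up to 0.12 without C1 replicate 2, 3 or 4 or C1H replicate 3, Mixl1 was near 1 CPM in both groups, and Hoxb1 went from 0.12 to 1.34 CPM with adjusted p = 0.032 and up to 0.11 without C1 replicate 1, 2 or 3 or C1H replicate 1 or 2. In the endoderm list Col4a2, a basement membrane collagen, fell (−0.81 ± 0.19, adjusted p = 0.0006), Amn, of the cubilin receptor, rose (1.15 ± 0.38, adjusted p = 0.016; up to 0.069 without C1 replicate 3 or 4 or C1H replicate 3), and Ttr, or transthyretin, fell (adjusted p = 0.047; up to 0.16 when 6 of the 8 libraries were left out, each in turn). The posterior Hox gene Hoxd11 rose from 1.88 ± 1.04 to 9.00 ± 1.59 CPM (2.17 ± 0.44, adjusted p = 3.6e-05) and Hoxd8 by 1.05 ± 0.34 on the log2 scale (adjusted p = 0.013; 0.078 without C1 replicate 1). Cdx2, Col1a2, H19, Igf2 and Fzd1 were under the floor in mean in C1 and not called (Cdx2 at adjusted p = 0.048 without C1 replicate 4). Prdm1, of germ cell specification, was called at adjusted p = 0.026 and up to 0.40 without C1 replicate 1 or 3 or C1H replicate 2, and Peg3 fell (−0.54 ± 0.18, adjusted p = 0.013; up to 0.084 without C1 replicate 1 or C1H replicate 3).

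In the cell cycle and stress lists Lig1, the replicative DNA ligase, fell from 1241 ± 82.5 to 963.5 ± 86.6 CPM (−0.37 ± 0.07, adjusted p = 2.9e-06) and Mcm5 from 352.5 ± 28.7 to 276.5 ± 18.9 CPM (−0.35 ± 0.07), while Mcm2, Ccna2 and Ccnb1 were not called (adjusted p = 0.9, 0.5 and 0.87). Rfc5, Prim2 and Orc1 rose by 0.27, 0.62 and 0.33 on the log2 scale, each with a call lost without at least 4 of the 8 libraries (adjusted p up to 0.14). Cdk1, the mitotic kinase, rose (0.42 ± 0.11, adjusted p = 0.0033), as did Aurka (adjusted p = 0.016; up to 0.13 without C1 replicate 1 or 3 or C1H replicate 2 or 3), and Nek2 fell (adjusted p = 0.0087; 0.066 without C1H replicate 4). Cdkn2a, the Ink4a/Arf locus, rose (0.47 ± 0.12, adjusted p = 0.00095), and Ccnd2 rose at adjusted p = 0.016 and up to 0.19 without C1 replicate 3 or 4 or C1H replicate 2 or 3. Among stress genes Hspa1b rose from 1.52 ± 0.819 to 7.69 ± 0.892 CPM (2.34 ± 0.44, adjusted p = 9.1e-06), Fos by 1.35 ± 0.35 and Vldlr by 1.36 ± 0.30, while Hspb1 (−0.34 ± 0.08), Atf5 (−0.45 ± 0.09) and Sars, a seryl-tRNA synthetase (−0.40 ± 0.07, adjusted p = 9.9e-07), fell. Ier2 fell at adjusted p = 0.034 and up to 0.22 without C1 replicate 1 or C1H replicate 1 or 4, and Fosb, Dusp4, Dusp5, Lifr and Il6st were not called (Dusp5 at adjusted p = 0.031 without C1 replicate 2). Stat3 rose (0.27 ± 0.09, adjusted p = 0.022; up to 0.14 without C1 replicate 1 or 3 or C1H replicate 1 or 2). Bst2, an interferon-induced membrane protein, rose from 13.2 ± 3.12 to 29.04 ± 3.23 CPM (1.15 ± 0.20, adjusted p = 2.5e-06), and Isg15 stayed under 1 CPM in mean. In the respiratory chain Cox6c rose (0.35 ± 0.07), Cox6a2, a muscle and heart isoform, went from 0.653 to 5.23 CPM (ratio 8.68, interval 3.51 to 27.7), and Cox8c went from no read in C1 to 1.58 CPM. Atp5j2, Atp5e and Ndufc1 fell by 0.47, 0.55 and 0.42 on the log2 scale. The mitochondrial transcripts mt-Nd5 and mt-Co1 rose (0.46 ± 0.07 and 0.35 ± 0.07). Rplp1 rose by 0.49 ± 0.07, and Rps27l, Rpl35 and Rps27rt were the 3 of 81 ribosomal protein genes that fell (−0.26, −0.43 and −0.72).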
